A study of Arabidopsis thaliana with 4 samples.

Results

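The comparison described here sets rescued emf2, Arabidopsis seedlings of the emf2 mutant background that carry the transgene 35S::BoEMF2.1, against untransformed wild type (WT). It asks which transcripts are away from their wild-type level in rescued emf2, whether or not they were so in emf2. It uses 2 of the 4 arrays of the study, chosen by their sample labels, with all 22746 probe sets that are not controls. Whole seedlings 7 days old had grown on sucrose-containing agar plates in short days, with 8 h of light and 16 h of dark at 21 °C. Rescued emf2 plates contained hygromycin, an antibiotic used to select transformed plants, and WT plates did not. Genotype, transgene and hygromycin therefore all separate the 2 arrays and cannot be told apart. The other 2 arrays are used only for values given side by side: emf2, the mutant without transgene or hygromycin, and transWT, the wild-type background with the same transgene and hygromycin. WT is the Columbia ecotype. Neither the emf2 allele nor the number of transgenic lines or of pooled seedlings is stated in the labels. Each group was measured on 1 array, so the differences below carry neither replicate error nor p-values.

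EMBRYONIC FLOWER 2 (EMF2) belongs to Polycomb repressive complex 2, an enzyme complex that places a repressive methyl mark on histone H3 and keeps floral and seed programmes silent while a seedling grows vegetatively. Mutants without EMF2 largely skip the rosette phase and make small flower-bearing seedlings. BoEMF2.1 is a gene of Brassica oleracea named after EMF2, and 35S is a strong viral promoter that is active in most tissues. EMF2 itself, its partners CLF and SWN, and the known Polycomb targets FLC, FT, AG, AP3, PI and SEP3 were asked for by name, and 0 of these 9 genes has a probe set named by that gene alone. The genotypes were therefore not checked by EMF2 signal, and those targets are not analysed here.

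Signals are MAS5 intensities on a linear scale, and a signal of 87.6, the 40th percentile of all probe sets over the 4 arrays, served as a floor below which signals have no order. The rescued emf2 array had 13394 probe sets above it and the WT array 14015. Root markers (EXPA18, EXPA7 and PYK10) summed to 18754 in rescued emf2 and 15775 in WT, nearly all of it PYK10 (17946 in rescued emf2 and 15178 in WT), whose log2 ratio of 0.24 became -0.11 after quantile normalization and -0.08 after cyclic loess. Both named seed and embryo markers were below the floor on every array. In RNA of whole seedlings, fewer cells of a type and less RNA per cell cannot be told apart. Control RNAs added during preparation had more signal on the rescued emf2 array, with a median ratio over WT of 1.35 for 18 hybridization control probe sets and 2.48 for 7 bacterial poly-A control probe sets, and their part in the ratios below was not tested. The 5′ over 3′ signal ratio of actin, a sign of RNA quality, was 0.394 in rescued emf2, 0.434 in emf2, 0.399 in transWT and 0.519 in WT, and that of GAPDH was 0.953 in rescued emf2, 1.104 in emf2, 1.02 in transWT and 0.920 in WT. WT was thus highest for actin and lowest for GAPDH, and the part of RNA quality in the ratios was not tested. For 47 genes with a second probe set, the disagreement of the probe sets gave an error of 0.37 (SD, log2) for a ratio of rescued emf2 over WT, which holds no variation between plantings. In most of these genes the brighter probe set gave the higher ratio, a one-sided difference that the SD leaves out. The median absolute difference between the probe sets was 0.46 (log2). Of 9 such genes past 2-fold by either probe set, 2 were past 2-fold by both. A further 80 named genes lay within 0.02 (log2) of the 2-fold line, so a call close to it is a description of these arrays.

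Of 14593 probe sets above the floor on at least one of the 2 arrays, 863 (5.91%) exceeded their WT signal at least 2-fold in rescued emf2 and 1444 (9.9%) were below it by as much, together 15.8%. At least 4-fold differences were seen in 144 higher (0.987%) and 174 lower (1.19%) probe sets. Among the 7788 genes named by a probe set of their own, 413 (5.3%) were higher and 739 (9.49%) lower, and these shares are the background for the gene groups below. Of those groups, 11 were put together after values had been seen: chloroplast RNA and assembly factors, nuclear NDH subunits, starch genes, IQD proteins, GH9 endoglucanases, the TBL family, RALF peptides, serine carboxypeptidase-like genes, respiratory enzymes, nuclear RNA polymerase subunits and chromatin genes. The other groups were chosen with earlier results of these data known, so their counts beside the background are descriptions too. The share of higher calls among all calls depended on how arrays were scaled. It was 37.4% with the arrays at one trimmed mean, 49.3% after quantile normalization (1063 higher and 1093 lower), 48.1% after cyclic loess (1029 and 1110) and 63.1% when arrays were scaled to their median (1417 and 829). The median log2 ratio of all tested probe sets was -0.10 and shifted to 0.14 under the last of these. Lower calls were most frequent among probe sets with a mean signal between 185 and 394 (13.6% of 3648) and least frequent above 943 (6.28% of 3649), where 6.91% were higher. By nuclear chromosome, the share of named genes called higher ran between 3.75% and 6.47% and that called lower between 8.39% and 10.1%.

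**Figure D1:**
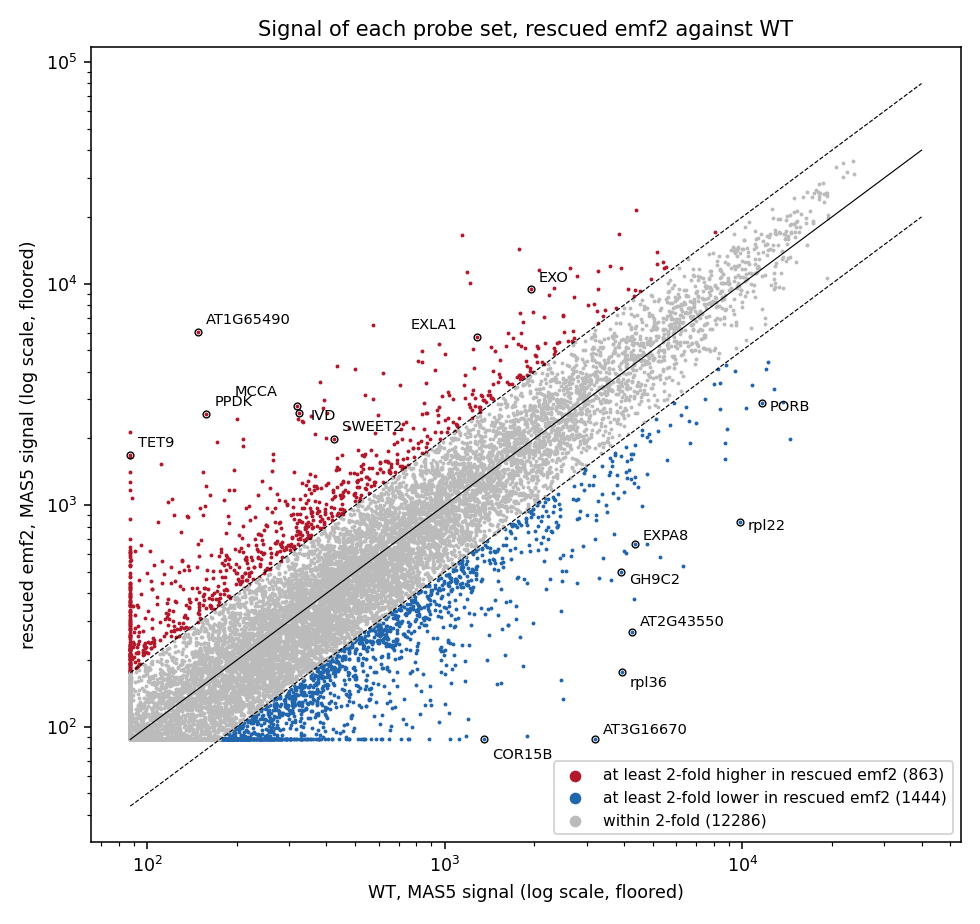
Signal of each probe set on the rescued emf2 array (vertical) against the WT array (horizontal), both MAS5 intensities on log axes with signals below the floor of 87.6 drawn at the floor; the solid line marks equal signal and the dashed lines 2-fold differences. The 863 red probe sets lie at least 2-fold above WT and the 1444 blue ones at least 2-fold below it, with AT1G65490 and PPDK far above the line and rpl36, rpl22 and AT3G16670 far below it.

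The gene farthest above its WT level was AT1G65490, with signals of 6039 in rescued emf2, 1154 in emf2, 2366 in transWT and 148 in WT, 40.7-fold higher in rescued emf2 than in WT. Its signal was above WT on all 3 other arrays and highest in rescued emf2. TET9, a tetraspanin (a small membrane protein with several membrane passes), had 1691 in rescued emf2, 2138 in emf2, 258 in transWT and 56.7 in WT, and was at least 19.3-fold higher than in WT. Here rescued emf2 stood close to emf2, and WT lay below the floor. AT1G22890 (1990.5 in rescued emf2, 1961 in emf2, 802 in transWT and 209 in WT) and AT1G12010 (837 in rescued emf2, 777 in emf2, 118 in transWT and 108 in WT) also had nearly the emf2 level, and were 9.51-fold and 7.72-fold above WT. AT1G68440 was highest in transWT, at 2389 in rescued emf2, 769 in emf2, 2928 in transWT and 330.2 in WT. Rescued emf2 was 7.23-fold above WT. AT1G64500 (658 in rescued emf2, 19.7 in emf2, 847 in transWT and 95 in WT) and AT1G56060 (884 in rescued emf2, 62.5 in emf2, 688 in transWT and 137 in WT) were high on both transgenic arrays as well, with emf2 below the floor, and stood 6.93-fold and 6.44-fold above WT.

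On the lower side, AT3G16670 read 25 in rescued emf2, 20.3 in emf2, 927 in transWT and 3208 in WT, and was at least 36.6-fold lower than in WT. Both arrays of the emf2 background were below the floor, and transWT lay between them and WT. AT2G43550 had 267 in rescued emf2, 820.2 in emf2, 589.9 in transWT and 4244 in WT, 15.9-fold lower in rescued emf2 than in WT. Each of the other arrays was below WT, and rescued emf2 was the lowest. AT5G63180 had 187 in rescued emf2, 25.9 in emf2, 1079 in transWT and 1837 in WT, 9.79-fold lower than in WT, and AT1G73600 had 157 in rescued emf2, 341 in emf2, 306 in transWT and 1547 in WT, 9.86-fold lower. AT1G11210 (90.9 in rescued emf2, 632 in emf2, 36.4 in transWT and 1178 in WT) was near or below the floor on both transgenic arrays, and was 13-fold lower than in WT. These genes have only locus names in the annotation used, so no function is given for them. The plot of the genes that differ most shows how differently the other arrays place them.

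**Figure D2:**
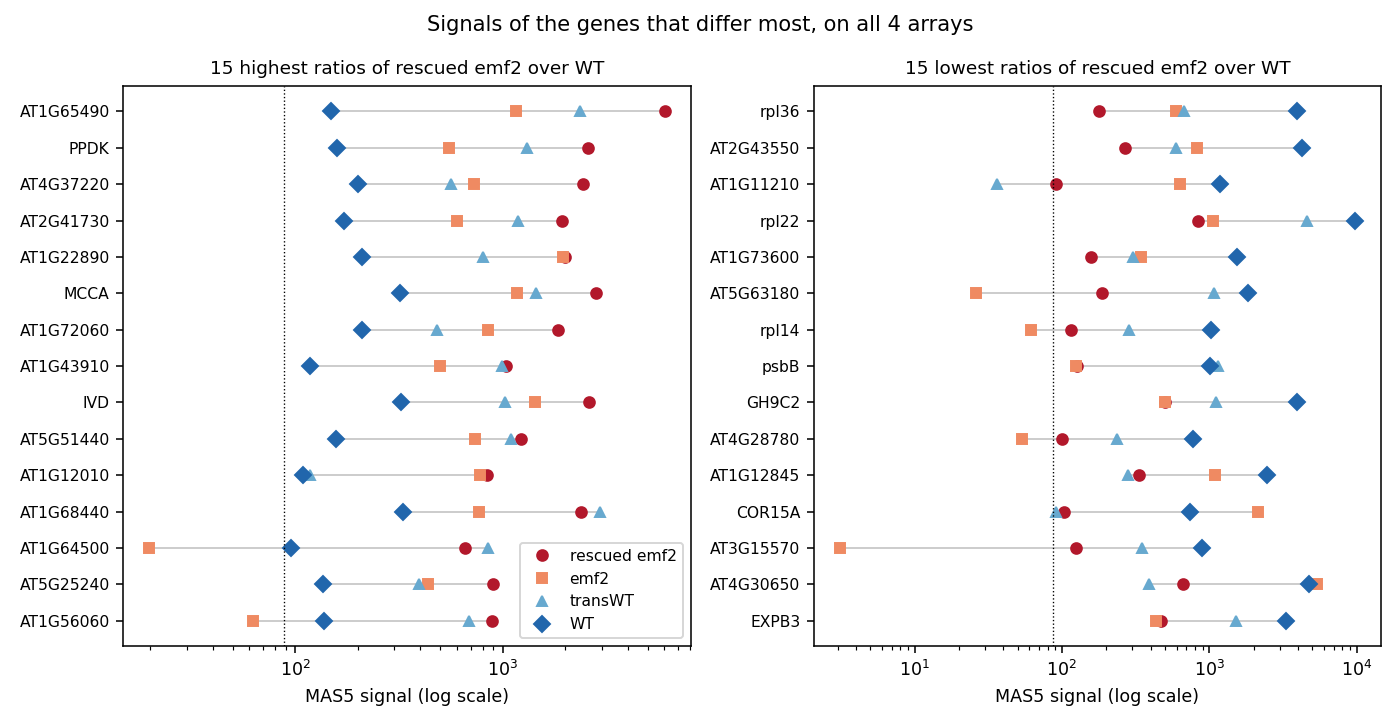
MAS5 signal (log scale) on all 4 arrays for the 15 named genes with the highest (left) and the 15 with the lowest (right) ratio of rescued emf2 over WT among genes above the floor on both; each marker is 1 array and the dotted line is the floor of 87.6. Rescued emf2 has the highest or nearly the highest signal in the left panel, whereas in the right panel genes such as EXPB3 and psbB have nearly the emf2 signal and genes such as COR15A nearly the transWT signal.

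Genes of leucine breakdown stood far above WT. Plants break leucine, isoleucine and valine down in mitochondria through acyl-CoA esters, and pass the electrons through the electron-transfer flavoprotein (ETF) to the respiratory chain; the pathway is known to be switched on in prolonged darkness, sugar shortage and senescence. Of 13 measured genes of branched-chain amino acid breakdown and the dark response, 6 exceeded WT at least 2-fold in rescued emf2 and 1 was lower, with a median log2 ratio of 0.65, against 5.3% and 9.49% of all named genes and a median of -0.10. This list was chosen with earlier results of these data known, so its count describes these genes and is no test of the pathway. MCCA, the biotin-bearing subunit of 3-methylcrotonyl-CoA carboxylase, had 2811 in rescued emf2, 1168 in emf2, 1449 in transWT and 318 in WT, 8.83-fold higher than in WT. MCCB, the other subunit of that enzyme, had 2107 in rescued emf2, 1091 in emf2, 1139 in transWT and 674 in WT, 3.12-fold higher. IVD, the isovaleryl-CoA dehydrogenase that acts just before them, had 2617 in rescued emf2, 1428 in emf2, 1021 in transWT and 322 in WT, 8.12-fold higher. In all 3 genes rescued emf2 was the brightest array and WT the dimmest, with emf2 and transWT between. ETFQO, the enzyme that hands ETF electrons to ubiquinone, had 538 in rescued emf2, 285 in emf2, 343 in transWT and 181 in WT, 2.98-fold higher, with the same order at the ends. The subunits of ETF itself were within 2-fold of WT: ETFBETA had 739.8 in rescued emf2 against 526 in WT and ETFALPHA 393 in rescued emf2 against 407 in WT. D2HGDH, which also feeds ETF, had 284 in rescued emf2 against 351 in WT.

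PPDK, pyruvate orthophosphate dikinase, which takes part in moving nitrogen out of ageing leaves, had 2572 in rescued emf2, 552 in emf2, 1306 in transWT and 158 in WT, 16.3-fold higher than in WT. SAG29, a senescence-associated sugar transporter gene, had 386 in rescued emf2, 170.5 in emf2, 257 in transWT and 49.4 in WT, and was at least 4.41-fold higher because WT was below the floor. The lower member was BCAT4, which works in the chain elongation of methionine for glucosinolates rather than in breakdown, with 549.6 in rescued emf2, 3274 in emf2, 921 in transWT and 1419.8 in WT, 2.58-fold lower. Within the same list, the count past 2-fold was 4 higher and 0 lower of 13 both in emf2 over WT (median 0.69) and in transWT over WT (median -0.01). Over all named genes, 7.08% were higher in emf2 over WT and 3.46% in transWT over WT, and both comparisons share the WT array with this one. Under all scalings 6 members stayed higher and 1 lower.

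The ubiquitin-like ATG8 proteins coat the membrane of the autophagosome, by which cells recycle their own content. All 10 measured autophagy genes had a log2 ratio above 0, with a median of 0.78, but only 2 passed 2-fold, ATG8E (3176 in rescued emf2, 1776 in emf2, 2707 in transWT and 1234 in WT; 2.57-fold higher) and ATG8B (644 in rescued emf2, 1014 in emf2, 438 in transWT and 309.9 in WT; 2.08-fold higher). The remaining 8 lay between 1.18-fold (ATG3) and 1.94-fold (ATG8F), and with arrays scaled to the median 5 of the 10 passed 2-fold. ATG8B was brighter in emf2 than in rescued emf2, whereas ATG8E was brightest in rescued emf2. In transWT over WT all 10 were also above 0 (median 0.47, 1 at least 2-fold higher). In emf2 over WT 9 of 10 were above 0 (median 0.94, 2 at least 2-fold higher). The median in rescued emf2 over emf2 was -0.07, and the comparisons with WT share its array. Of all named genes 5.3% were higher in rescued emf2 over WT, 7.08% in emf2 over WT and 3.46% in transWT over WT.

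Of 20 measured respiratory and organic acid enzymes 3 were higher and 1 lower (median 0.55), beside 5.3% and 9.49% of all named genes. In emf2 over WT the count was also 3 higher and 1 lower of 20 (median 0.56), beside 7.08% and 10.7%. In transWT over WT it was 1 higher and 0 lower of 21 (median 0.20), beside 3.46% and 5.05%. The median in rescued emf2 over emf2 was -0.05. The list of respiratory enzymes was put together after values had been seen. NDB2, an NADH dehydrogenase on the outer face of the inner mitochondrial membrane that bypasses complex I, had 1894 in rescued emf2, 1559.9 in emf2, 1141 in transWT and 677 in WT, 2.80-fold higher. ICL, isocitrate lyase of the glyoxylate cycle, had 1108 in rescued emf2, 1800.5 in emf2, 1167 in transWT and 445 in WT, 2.49-fold higher. FDH, the mitochondrial formate dehydrogenase, had 3614 in rescued emf2, 2891 in emf2, 1802 in transWT and 1512 in WT, 2.39-fold higher. NDB1, another external dehydrogenase, had 179 in rescued emf2, 168 in emf2, 256 in transWT and 425 in WT and was 2.38-fold lower, a call lost when arrays were scaled to the median. Cytosolic isocitrate dehydrogenase (cICDH) had 12949.7 in rescued emf2 against 6569 in WT, just within 2-fold, and both cytochrome c genes were 1.63-fold above WT.

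The next 6 genes belong to no list and were picked because their values were high, so they say nothing of nitrogen or energy genes as a group. AKINBETA1, a regulatory subunit of the SnRK1 kinase that responds to low energy, had 3497 in rescued emf2, 1149.9 in emf2, 2724 in transWT and 709 in WT, 4.93-fold higher than in WT. GAT1_2.1, a glutamine amidotransferase gene, had 1168 in rescued emf2, 601 in emf2, 799.9 in transWT and 188 in WT, 6.22-fold higher. MGL, methionine gamma-lyase, which degrades methionine, had 596 in rescued emf2, 162 in emf2, 480.0 in transWT and 164 in WT, 3.64-fold higher, and its emf2 signal was close to that of WT. DELTA-OAT, ornithine aminotransferase, stood at 649 in rescued emf2 against 292 in WT. AAH, which releases ammonium from the purine breakdown product allantoate, had 780.1 in rescued emf2 against 339 in WT. ASPGB1, an asparaginase, had 218 in rescued emf2 against 96.4 in WT. These last 3 were 2.22-fold, 2.30-fold and 2.26-fold above WT.

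**Figure D3:**
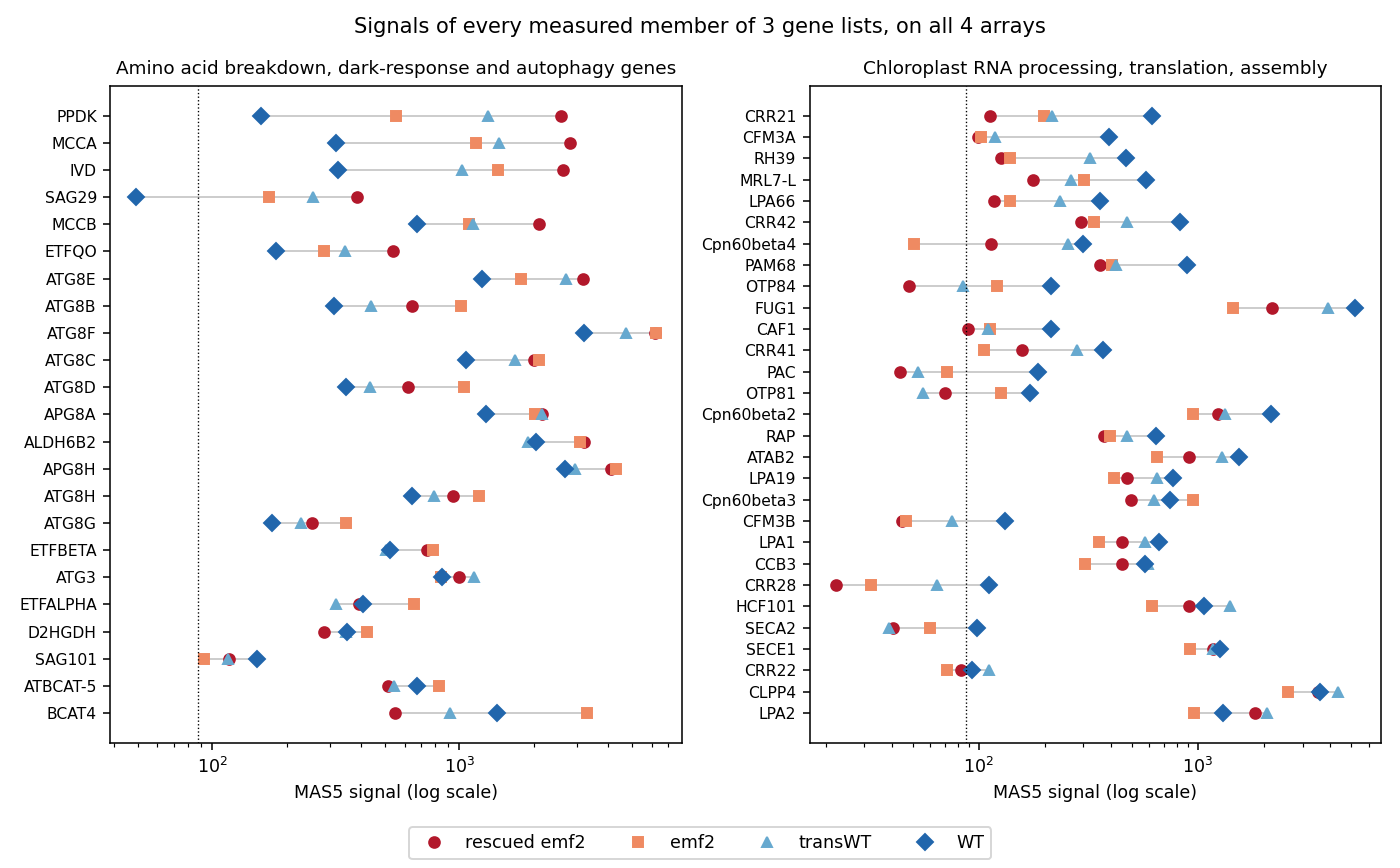
MAS5 signal (log scale) on all 4 arrays for every measured member of the lists for amino acid breakdown with dark response and autophagy (left) and for chloroplast RNA processing, translation and assembly (right), ordered by the ratio of rescued emf2 over WT; each marker is 1 array and the dotted line is the floor of 87.6. In the left panel WT has the lowest signal for most genes above ATG3, and in the right panel it has the highest for all 13 genes past 2-fold.

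Transcripts encoded in the plastid genome were mostly below their WT level in rescued emf2, by amounts that differed along the genome. Of 64 measured of 69 named plastid genes, 19 were at least 2-fold lower and 1 higher, with a median log2 ratio of -0.64, whereas 9.33% of 7718 nuclear named genes were lower and 5.33% higher, with a median of -0.10. In emf2 over WT 47 of 64 plastid genes were lower (median -1.78; 7.08% of all named genes were higher and 10.7% lower), and in transWT over WT 4 of 66 were lower and 11 higher (median 0.23; 3.46% and 5.05% of all named genes were higher and lower). Plastid genes are transcribed together from operons, and genes were therefore also taken in their order along the genome. The 3 stretches below were picked after their values were seen. Their counts, and their contrast with the other plastid genes, are therefore descriptions only. In the stretch from rps19 to rpoA, which holds ribosomal proteins of both subunits and the alpha subunit of the plastid RNA polymerase, 6 of 7 genes were lower, with a median of -2.0. The lowest was rpl36, with 177 in rescued emf2, 592 in emf2, 677 in transWT and 3939 in WT, 22.2-fold lower than in WT. Nearby, rpl14 had 116 in rescued emf2, 61.7 in emf2, 287 in transWT and 1029 in WT, 8.88-fold lower. A little farther on, rpl22 had 836 in rescued emf2, 1060.0 in emf2, 4569 in transWT and 9792 in WT, 11.7-fold lower. In rpl22 rescued emf2 was near emf2, and in rpl36 it was below both other arrays. Within this stretch rpl16 departed, at 1056 in rescued emf2, 112 in emf2, 1703 in transWT and 1611 in WT, within 2-fold of WT while emf2 was far lower.

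The psbB stretch encodes a core antenna protein of photosystem II and small subunits beside it. Its psbB had 127 in rescued emf2, 125 in emf2, 1145 in transWT and 1003 in WT, 7.91-fold lower, and psbT had 58.9 in rescued emf2, 43.9 in emf2, 527 in transWT and 613 in WT, at least 7.0-fold lower. Both arrays of the emf2 background had like signals and both of the wild-type background did. psbH had 3555 in rescued emf2, 3379 in emf2, 7664 in transWT and 8389 in WT, 2.36-fold lower, and was within 2-fold when arrays were scaled to the median. petB, which encodes cytochrome b6 near the end of the same unit, stayed at 15889.9 in rescued emf2, 10615 in emf2, 22175 in transWT and 14176 in WT, a log2 ratio of 0.16. In the third stretch, from rps15 and ndhH to ndhD, 5 of 8 genes were lower, with a median of -1.56. ndhH, a subunit of the NDH complex that cycles electrons around photosystem I, had 109 in rescued emf2, 116 in emf2, 625 in transWT and 722 in WT, 6.65-fold lower. psaC, the iron-sulfur subunit of photosystem I, had 629 in rescued emf2, 635 in emf2, 2251 in transWT and 2681 in WT, 4.26-fold lower. Their neighbours ndhI (16251 in rescued emf2 against 14999.9 in WT) and ndhD (5255 in rescued emf2 against 5733 in WT) were close to WT, so the lower calls were not shared by the whole stretch.

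Among the 45 measured plastid genes outside these stretches 5 were lower and 1 higher, with a median of -0.53. The lower ones were rpoC1 (2.67-fold lower) and rpoC2 (2.67-fold lower), which encode subunits of the plastid RNA polymerase, ycf3 (2.56-fold lower), a photosystem I assembly factor, atpI (at least 2.43-fold lower) and rps16 (2.03-fold lower). With rpoA, 3 of 4 measured RNA polymerase genes were lower. The higher one was petL, a small subunit of the cytochrome b6f complex, at 1115 in rescued emf2, 97.9 in emf2, 926 in transWT and 339 in WT, 3.29-fold above WT. Several genes with far less signal in emf2 were at or above their WT signal in rescued emf2. psbC, a photosystem II core antenna gene, had 3477 in rescued emf2, 419.6 in emf2, 4545 in transWT and 1829.8 in WT. atpB, a subunit of the ATP synthase, had 25681 in rescued emf2, 6020.4 in emf2, 29872 in transWT and 17451 in WT. rps4 had 5653 in rescued emf2, 918 in emf2, 9399.9 in transWT and 3535 in WT, and in each of these 3 genes rescued emf2 was within 2-fold of WT and emf2 was the lowest array. By complex, 7 of 14 ribosomal protein genes, 4 of 19 photosystem genes, 3 of 9 NDH genes and 1 of 6 ATP synthase genes were lower. Across scalings the count of lower plastid genes ran from 17 to 20 and the median stayed below 0.

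**Figure D4:**
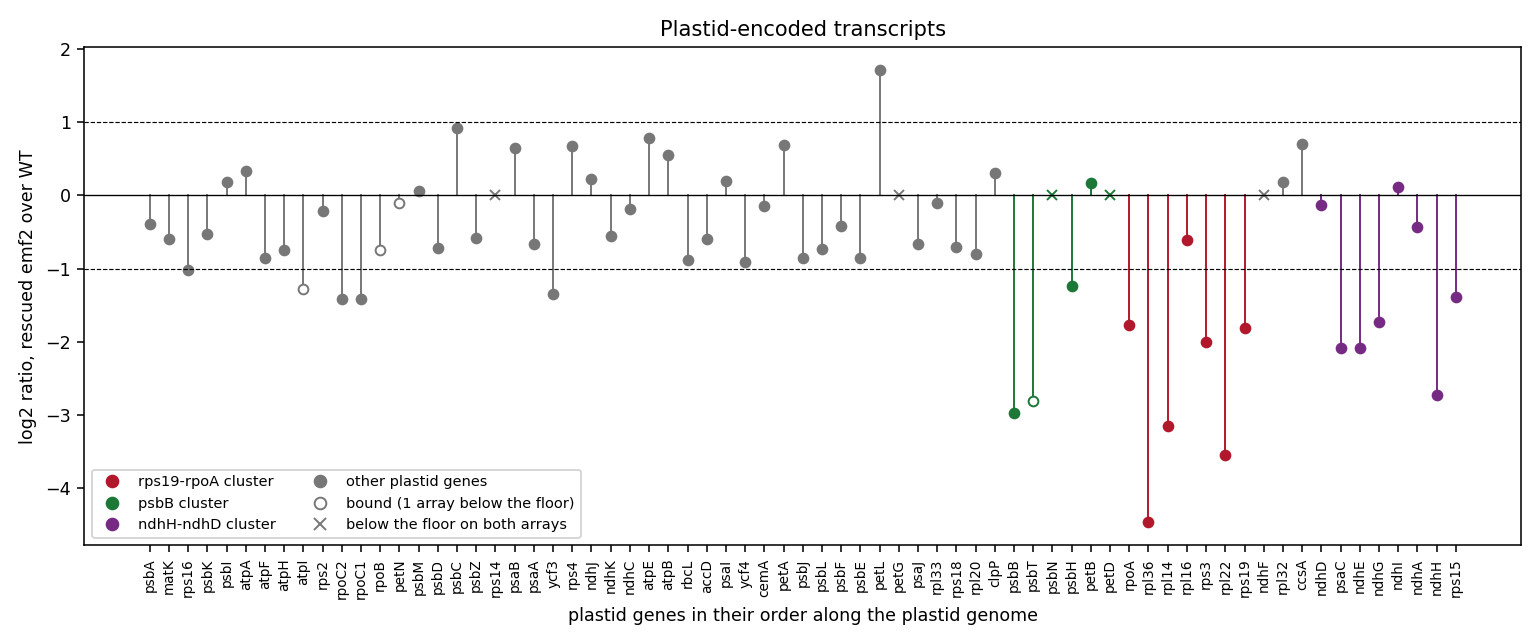
Log2 ratio of rescued emf2 over WT for the plastid genes in their order along the plastid genome, coloured by stretch; open circles are bounds with 1 array below the floor, crosses are genes below the floor on both arrays, and the dashed lines mark 2-fold. Long downward bars gather in the rps19-rpoA, psbB and ndhH-ndhD stretches, and petL is the only bar beyond 2-fold upward.

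Some nuclear genes for the handling of plastid transcripts and proteins were at least 2-fold lower as well, and others were within 2-fold. Chloroplast transcripts need imported proteins for splicing, editing and translation, and chaperones for assembling complexes. Of 29 measured genes of this kind 13 were at least 2-fold lower in rescued emf2 and 0 higher, with a median of -0.82. Of all named genes 9.49% were lower and 5.3% higher, with a median of -0.10. The list was put together after lower members had been seen, so its count is a description of the genes below. Scalings gave between 10 and 13 lower members, whereas the floor moved the count further, to 18 of 30 at the 25th percentile (median -1.26) and 5 of 21 at the 60th (median -0.60). CFM3A, RH39 and LPA66 were within 2-fold at that higher floor, with log2 ratios of -0.59, -0.86 and -0.47. In emf2 over WT 12 and in transWT over WT 6 of 29 were lower, with medians of -0.92 and -0.41. Of all named genes, 10.7% were lower in emf2 over WT and 5.05% in transWT over WT. CRR21, which is needed to edit the ndhD transcript, had 112 in rescued emf2, 198 in emf2, 216 in transWT and 615 in WT, 5.47-fold lower. CFM3A, a splicing factor of group II introns, had 99.3 in rescued emf2, 102 in emf2, 119 in transWT and 391 in WT, 3.93-fold lower. RH39, an RNA helicase that acts on plastid ribosomal RNA, had 126 in rescued emf2, 138 in emf2, 322 in transWT and 471 in WT, 3.74-fold lower. Rescued emf2 was the dimmest array for all 3, and CFM3A lay near the floor on every array but WT.

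MRL7-L, needed for transcription by the plastid-encoded polymerase, had 176 in rescued emf2, 302 in emf2, 262 in transWT and 579 in WT, 3.29-fold lower. LPA66, needed to edit psbF, had 117 in rescued emf2, 139 in emf2, 235 in transWT and 357 in WT, 3.05-fold lower. CRR42, an assembly factor of the NDH complex, had 293 in rescued emf2, 334 in emf2, 472 in transWT and 828 in WT, 2.82-fold lower, and again WT was brightest. FUG1, a translation initiation factor of chloroplasts, had 2172 in rescued emf2, 1441 in emf2, 3929 in transWT and 5210.3 in WT, 2.40-fold lower. PAM68, which helps to assemble photosystem II, had 358 in rescued emf2, 404 in emf2, 420.4 in transWT and 891 in WT, 2.49-fold lower. Cpn60beta4, a chaperonin subunit needed to fold NdhH, had 113 in rescued emf2, 50.7 in emf2, 255 in transWT and 297 in WT, 2.63-fold lower. The highest ratio belonged to LPA2 (1816 in rescued emf2 against 1305 in WT), within 2-fold of WT. Among nuclear subunits of the NDH complex, NdhL had 1085 in rescued emf2, 960.0 in emf2, 1991 in transWT and 2313 in WT, 2.13-fold lower, while NdhN (702 in rescued emf2 against 1212 in WT) and NdhS (2436 in rescued emf2 against 3695 in WT) were within 2-fold; the call for NdhL was lost when arrays were scaled to the median.

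Nuclear genes of the photosystems and their antennae were mostly within 2-fold of WT. Of 9 measured, 0 were lower and 1 was higher, beside 9.49% and 5.3% of all named genes. Their median was 0.34 and became 0.0029 after quantile normalization. The higher one was LHCB4.3, a minor antenna protein, at 735 in rescued emf2, 346 in emf2, 1641 in transWT and 347 in WT, 2.12-fold higher. LHCB4.2 had 21125 in rescued emf2, 8746 in emf2, 21047 in transWT and 14945 in WT, and PSBY had 15835 in rescued emf2, 6916 in emf2, 19054 in transWT and 13875 in WT, so both were lowest in emf2 and within 2-fold of WT in rescued emf2. In the Calvin cycle, SBPASE had 7889.6 in rescued emf2, 2668 in emf2, 10495 in transWT and 8341 in WT, RCA, which activates Rubisco, had 24480.1 in rescued emf2, 12238 in emf2, 25436 in transWT and 16006 in WT, and PRK had 7682 in rescued emf2, 4454 in emf2, 11755 in transWT and 11646 in WT. None of the 3 was past 2-fold in rescued emf2 over WT, and 2 were in emf2 over WT. In chlorophyll and carotenoid synthesis 2 of 8 were lower and 0 higher (median -0.67). PORB, the light-dependent protochlorophyllide oxidoreductase, had 2889.7 in rescued emf2, 3820.4 in emf2, 2390.2 in transWT and 11619 in WT, 4.02-fold lower. Its WT signal stood apart from the other 3. HEME1, of the early porphyrin pathway, had 1401 in rescued emf2, 1026 in emf2, 1655 in transWT and 2934 in WT, 2.09-fold lower, a call lost when arrays were scaled to the median, whereas CHLM, a later enzyme, had 7490.1 in rescued emf2 against 5684 in WT.

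COR15A, COR15B and GI, which respond to cold or to the clock, were lower than in WT on both arrays with the transgene, and most other cold genes were within 2-fold in rescued emf2. COR15A and COR15B encode small hydrophilic proteins of the chloroplast stroma that protect membranes in freezing. COR15A had 103 in rescued emf2, 2128 in emf2, 90.8 in transWT and 739 in WT, 7.18-fold lower than in WT, and COR15B had 69.9 in rescued emf2, 447 in emf2, 60.6 in transWT and 1354 in WT, at least 15.5-fold lower. The transgenic arrays were near or below the floor for both genes, and emf2 was above WT for COR15A and below it for COR15B. GI (GIGANTEA), an evening gene of the circadian clock that also promotes flowering, had 613 in rescued emf2, 1131 in emf2, 294 in transWT and 1797 in WT, 2.93-fold lower. LEA4-5, a late embryogenesis abundant protein, went the other way, with 234 in rescued emf2, 906 in emf2, 152 in transWT and 69.2 in WT, at least 2.67-fold higher, and was brightest in emf2. Of 7 measured cold and dehydration genes 2 were lower and 1 higher (median -0.31), and COR47, LTI30, RD2 and COR27 were within 2-fold. The clock list has GI as its only named member. The labels give no time of harvest.

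PWD and DPE1, both of starch breakdown, were likewise lower on both transgenic arrays than on the others; the starch list they belong to was put together after values had been seen. PWD (AT5G26570), phosphoglucan water dikinase, which phosphorylates starch so that it can be degraded at night, had 287 in rescued emf2, 862 in emf2, 305 in transWT and 1624 in WT, 5.66-fold lower. DPE1, the disproportionating enzyme that acts on short glucans inside the plastid, had 205 in rescued emf2, 586 in emf2, 123 in transWT and 701 in WT, 3.42-fold lower. The branching enzyme SBE2.2 (750.2 in rescued emf2 against 1461 in WT) and the synthesis subunits APL3 and APL4 were within 2-fold, so 2 of 5 measured starch genes were lower (median -0.96). BGLU44, a glycosidase with activity on mannose-containing sugars, had 986 in rescued emf2, 5729.7 in emf2, 529.7 in transWT and 4597 in WT, 4.66-fold lower. It too was low on the transgenic arrays and high on the others, as was AT4G30650 (666 in rescued emf2, 5419 in emf2, 392 in transWT and 4764 in WT), 7.15-fold lower. BGLU45, a relative that acts on lignin precursors, was at least 3.19-fold higher, at 279.6 in rescued emf2, 1049 in emf2, 143 in transWT and 65.5 in WT. Of 10 measured beta-glucosidases 1 was higher, 2 were lower and 7 were within 2-fold, beside 5.3% higher and 9.49% lower of all named genes. The other lower one was BGLU33 (log2 ratio -1.08), which lost its call under quantile normalization, cyclic loess and scaling to the median.

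**Figure D5:**
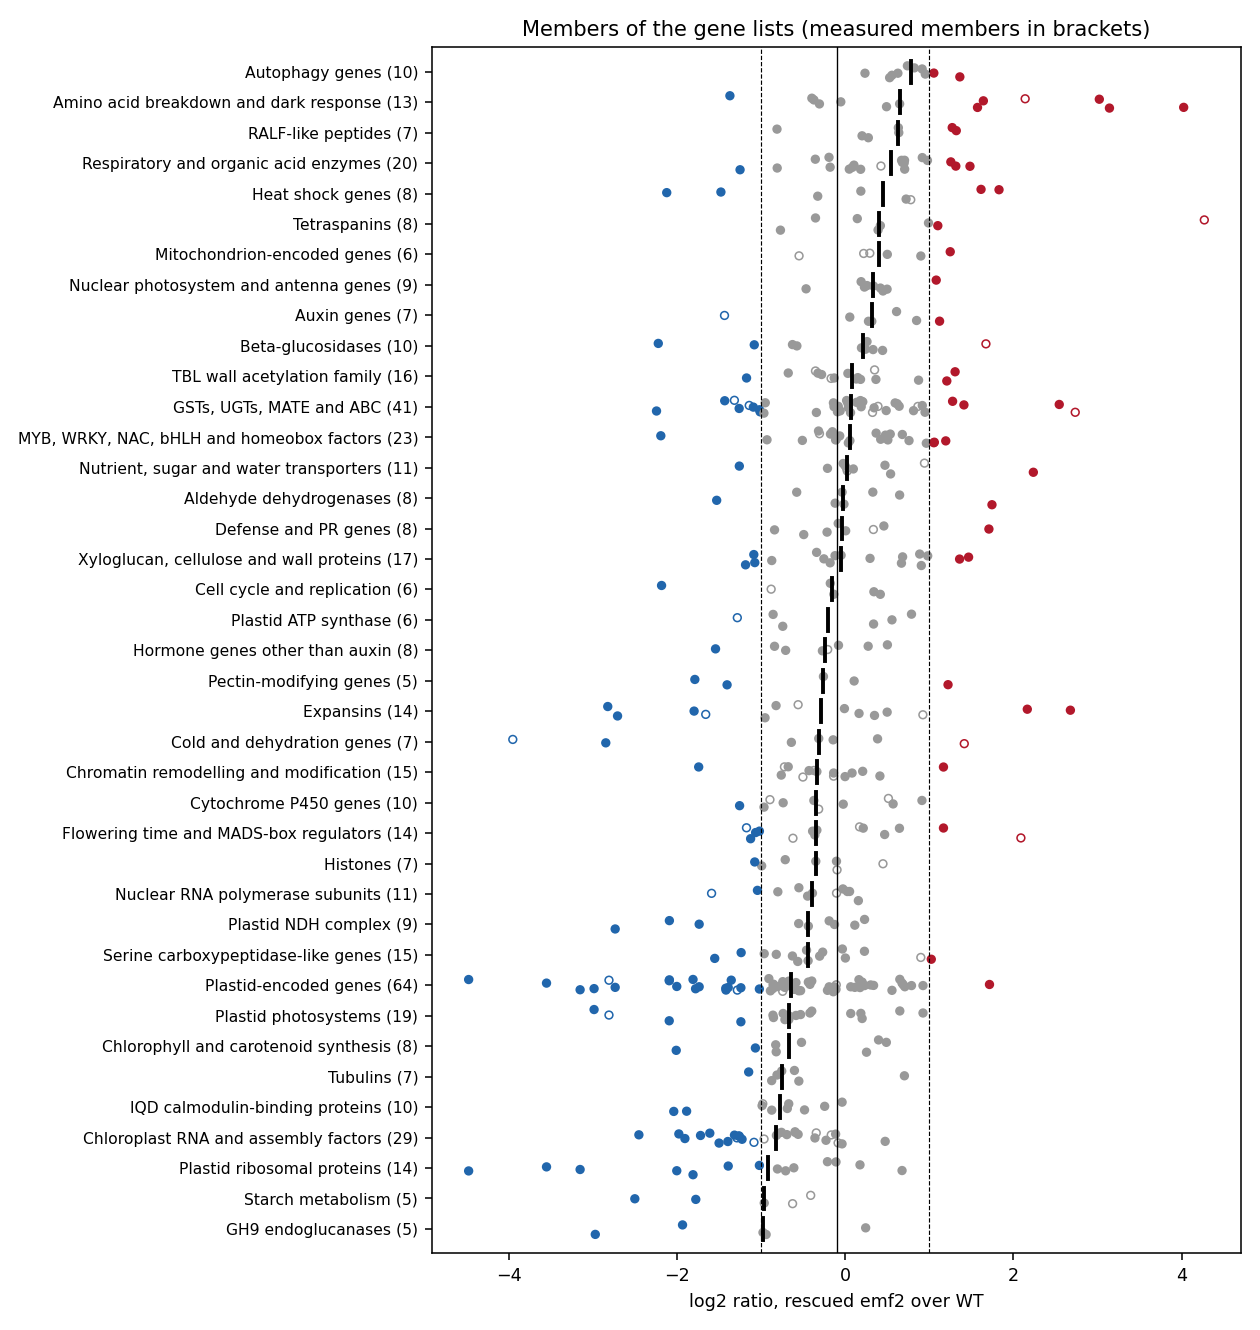
Log2 ratio of rescued emf2 over WT for each measured member of the gene lists with at least 5 measured members, ordered by the median (thick bar); filled circles are above the floor on both arrays, open circles are bounds, red and blue mark at least 2-fold higher and lower, the dashed lines mark 2-fold and the thin solid line the median of all named genes, -0.10. Autophagy and amino acid breakdown have the highest medians, 0.78 and 0.65, and GH9 endoglucanases, starch metabolism and plastid ribosomal proteins the lowest, -0.98, -0.96 and -0.91; 5 of the medians near 0 changed sign with the scaling of the arrays.

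Genes that loosen or remodel the cell wall differed in both directions. Expansins slide wall polymers apart without cutting them and let cells enlarge. Of 14 measured, 4 were lower and 2 higher, with a median of -0.28. EXPB3, a beta-expansin, had 468 in rescued emf2, 432 in emf2, 1514 in transWT and 3307 in WT, 7.07-fold lower. EXPA8 had 669 in rescued emf2, 45.6 in emf2, 3605 in transWT and 4363 in WT, 6.52-fold lower. For EXPB3 rescued emf2 matched emf2, whereas for EXPA8 it lay between emf2, which was below the floor, and WT. EXPA15 had 232 in rescued emf2, 242 in emf2, 299 in transWT and 807 in WT, 3.47-fold lower, and EXPB1 was at least 3.15-fold lower, at 85.1 in rescued emf2, 71 in emf2, 188 in transWT and 276 in WT. The higher ones were both expansin-like A genes: EXLA2 had 563 in rescued emf2, 274 in emf2, 268 in transWT and 87.9 in WT, 6.40-fold higher, and EXLA1 had 5762 in rescued emf2, 4764 in emf2, 1923 in transWT and 1284 in WT, 4.49-fold higher. Both were brightest in rescued emf2. The root-hair expansins EXPA18 (473 in rescued emf2, 1404 in emf2, 251 in transWT and 335 in WT) and EXPA7 (334 in rescued emf2, 699 in emf2, 189 in transWT and 262 in WT) were above 2-fold in emf2 over WT and within 2-fold here.

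Among GH9 endoglucanases, which trim cellulose and related glucans, 2 of 5 measured were lower and 0 higher (median -0.98). GH9C2, a form with a carbohydrate-binding domain, had 500.0 in rescued emf2, 499 in emf2, 1112 in transWT and 3917 in WT, 7.83-fold lower, the same signal as in emf2. GH9B8 had 156 in rescued emf2, 130.2 in emf2, 219.9 in transWT and 595 in WT, 3.82-fold lower. Pectin methylesterases remove methyl groups from pectin: ATPMEPCRD had 115 in rescued emf2, 95.4 in emf2, 398 in transWT and 395 in WT, 3.45-fold lower, and ATPMEPCRB had 286 in rescued emf2, 229 in emf2, 542 in transWT and 756 in WT, 2.64-fold lower. PMEPCRF was 2.34-fold higher, at 1206 in rescued emf2, 1370.0 in emf2, 916 in transWT and 516 in WT. In the xyloglucan and cellulose group 2 of 17 were higher and 3 lower. XTH16, which cuts and rejoins xyloglucan, had 1202 in rescued emf2, 416 in emf2, 957 in transWT and 435 in WT, 2.77-fold higher, and its relative EXGT-A3 had 5225 in rescued emf2, 4596 in emf2, 6266 in transWT and 2034 in WT, 2.57-fold higher. The lower members were CSLC5 (2.27-fold lower), CSLA03 (2.12-fold lower) and XTH20 (2.10-fold lower), none of which kept its call when arrays were scaled to the median. EXO (EXORDIUM), an extracellular protein of cell expansion picked after its value was seen, had 9412 in rescued emf2, 2379 in emf2, 9827 in transWT and 1943 in WT, 4.84-fold higher, and was high on both transgenic arrays.

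Cytoskeleton and division genes were mostly near or below WT. Of 7 tubulins 1 was lower, TUB5, with 1836 in rescued emf2, 2089.8 in emf2, 1875 in transWT and 4064 in WT, 2.21-fold lower, and the median was -0.75. The call for TUB5 was lost when arrays were scaled to the median, though the median of the list stayed below 0. IQD proteins bind calmodulin and sit on microtubules: iqd21 had 125 in rescued emf2, 84.3 in emf2, 296 in transWT and 514 in WT, 4.10-fold lower, and IQD31 had 326 in rescued emf2, 296 in emf2, 525 in transWT and 1205 in WT, 3.69-fold lower. They were the 2 lower of 10 measured members (median -0.78). PRL (PROLIFERA), the MCM7 subunit of the replicative helicase, had 129 in rescued emf2, 201 in emf2, 217 in transWT and 585 in WT, 4.54-fold lower, and was the 1 lower of 6 cell cycle genes. POLA3, a DNA polymerase alpha-primase gene picked after its value was seen, had 146 in rescued emf2, 203 in emf2, 154 in transWT and 458 in WT, 3.13-fold lower. Histone genes had 1 of 7 lower, HTB2, an H2B (256 in rescued emf2, 314 in emf2, 290.1 in transWT and 538 in WT; 2.11-fold lower), a call lost under 3 scalings. The Aurora kinases AUR1 (265 in rescued emf2 against 209 in WT) and AUR2 (194 in rescued emf2 against 145 in WT) were within 2-fold, so lower signal did not extend over the division genes measured.

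Flowering and development genes had few measured members, because 14 of 51 named ones were above the floor on either array. Among these 2 were higher and 4 lower, with a median of -0.35; lowering the floor to the 25th percentile made it 0.32. ALC (ALCATRAZ), a bHLH factor of fruit opening, had 373 in rescued emf2, 461 in emf2, 55.9 in transWT and 65 in WT, at least 4.26-fold higher. ULT1 (ULTRAPETALA1), which counteracts Polycomb silencing of AG in the flower, had 336 in rescued emf2, 428 in emf2, 188 in transWT and 149.5 in WT, 2.25-fold higher. Both genes had more signal on the emf2-background arrays than on the wild-type ones. SMZ and SNZ, AP2-type repressors of flowering, had 188 in rescued emf2, 145 in emf2, 414 in transWT and 409 in WT and 36.5 in rescued emf2, 4.70 in emf2, 106 in transWT and 197 in WT, and were 2.18-fold lower and at least 2.25-fold lower. AGL16, a MADS-box repressor of flowering, had 93.5 in rescued emf2, 48.9 in emf2, 99.9 in transWT and 195 in WT, 2.09-fold lower, and AGL87, another MADS-box gene, had 354 in rescued emf2, 109.5 in emf2, 727 in transWT and 717 in WT, 2.03-fold lower. Under quantile normalization, cyclic loess and scaling to the median, SMZ, AGL16 and AGL87 lost their calls. AGL42, a MADS-box gene close to SOC1, had 98.7 in rescued emf2, 129 in emf2, 3.30 in transWT and 9.70 in WT, just above the floor on the arrays of the emf2 background and below it on the others. SPT, which shares roles with ALC in the carpel, had 170.4 in rescued emf2, 206 in emf2, 90.3 in transWT and 147 in WT, within 2-fold.

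In leaf and shoot patterning, YAB5, a YABBY factor of the lower leaf side, had 142 in rescued emf2, 21.1 in emf2, 448 in transWT and 649 in WT, 4.56-fold lower, while YAB3 had 206 in rescued emf2 against 198 in WT. STOMAGEN, a peptide made in the leaf interior that promotes stomata, was picked after its value was seen and had 419 in rescued emf2, 236 in emf2, 829.7 in transWT and 985 in WT, 2.35-fold lower. Emf2 was the lowest array for both, and rescued emf2 lay between it and WT. In the transcription factor list 3 of 23 were higher and 1 lower: bZIP44 (1078 in rescued emf2, 1521 in emf2, 668 in transWT and 519 in WT; 2.08-fold higher), WRKY6 (388 in rescued emf2, 312 in emf2, 353 in transWT and 186 in WT; 2.09-fold higher), BZIP17 (221 in rescued emf2, 278 in emf2, 211 in transWT and 96.5 in WT; 2.29-fold higher) and, lower, YAB5. Of 15 chromatin genes 1 was higher, ULT1, and 1 lower, CHR17, an ISWI-type remodeller, with 128 in rescued emf2, 157 in emf2, 182 in transWT and 428 in WT, 3.34-fold lower. NRPA1, the largest subunit of RNA polymerase I, had 59.1 in rescued emf2, 110.3 in emf2, 101 in transWT and 263 in WT, at least 3.0-fold lower. NRPB6B (460.2 in rescued emf2 against 948 in WT; 2.06-fold lower) lost its call under 3 scalings, and the other 9 of 11 measured nuclear polymerase subunits were within 2-fold.

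Hormone genes were mostly within 2-fold, as were all named genes, of which 5.3% were higher and 9.49% lower. GH3.3, which conjugates auxin to amino acids, had 376 in rescued emf2, 64.1 in emf2, 234 in transWT and 173 in WT, 2.18-fold higher, and IAA29, an auxin-response repressor, had 40.3 in rescued emf2, 23.1 in emf2, 152 in transWT and 237 in WT, at least 2.70-fold lower; these were the 1 higher and 1 lower of 7 auxin genes. RR16, a cytokinin response regulator, had 98.1 in rescued emf2, 130.4 in emf2, 235 in transWT and 285 in WT, 2.91-fold lower, the only call among 8 genes of other hormones. Among RALF peptides, which signal through receptor kinases at the wall, RALFL22 (5409 in rescued emf2, 5982 in emf2, 4169 in transWT and 2164 in WT; 2.50-fold higher) and RALFL32 (2475 in rescued emf2, 2617 in emf2, 1512 in transWT and 1024 in WT; 2.42-fold higher) were the 2 higher of 7.

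The list of glutathione transferases, UGTs (enzymes that attach sugars to small molecules) and MATE or ABC transporters had 4 higher and 8 lower of 41 measured, a median of 0.06. The balance between directions depended on scaling, with 7 higher and 5 lower of 43 after quantile normalization, 7 and 6 of 41 after cyclic loess and 7 and 4 of 43 with arrays scaled to the median. UGT76E12 had 584 in rescued emf2, 407 in emf2, 12.6 in transWT and 1.30 in WT, at least 6.66-fold higher, with high signal only on the emf2-background arrays. UGT87A2 had 1056 in rescued emf2, 866 in emf2, 428 in transWT and 181 in WT, 5.84-fold higher, and GSTU16, a glutathione transferase, had 944 in rescued emf2, 543 in emf2, 498 in transWT and 355 in WT, 2.66-fold higher. UGT72E1, which glucosylates lignin precursors, had 318 in rescued emf2, 274 in emf2, 1249 in transWT and 1506 in WT, 4.73-fold lower, again near its emf2 signal. UGT78D1, which adds rhamnose to flavonols, had 127 in rescued emf2, 154 in emf2, 337 in transWT and 344 in WT, 2.70-fold lower. The lower calls of UGT74D1 (2.01-fold lower) and GSTU27 (2.02-fold lower) lay at the threshold itself. Among transporters SWEET2, a vacuolar sugar carrier, had 1996 in rescued emf2, 232 in emf2, 2275 in transWT and 423 in WT, 4.72-fold higher, and the tonoplast sugar carrier TMT2 had 343 in rescued emf2, 425 in emf2, 387 in transWT and 819.7 in WT, 2.39-fold lower. These were the 1 higher and 1 lower of 11.

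Of 8 defense genes 1 was higher, the thionin THI2.2, at 5252 in rescued emf2, 903 in emf2, 4169 in transWT and 1605 in WT, 3.27-fold higher, and 0 were lower. The defensin-like LCR69 had 12846 in rescued emf2 against 13596 in WT. CP1, a papain-like protease, had 1428 in rescued emf2, 118 in emf2, 3667 in transWT and 263 in WT, 5.44-fold higher; its transWT signal was higher still and its emf2 signal below that of WT. Of 8 aldehyde dehydrogenases ALDH7B4 was higher (4955 in rescued emf2, 5896 in emf2, 1631 in transWT and 1477 in WT; 3.35-fold higher) and ALDH3F1 lower (705 in rescued emf2, 964 in emf2, 1164 in transWT and 2029.8 in WT; 2.88-fold lower). In ALDH7B4 the arrays divided by background, with both of the emf2 background high. Chaperone genes went both ways, with 2 higher and 2 lower of 8: Hsp70-2 had 935 in rescued emf2, 797 in emf2, 416 in transWT and 263 in WT, 3.56-fold higher, and HSA32 had 279 in rescued emf2, 146 in emf2, 244 in transWT and 91 in WT, 3.07-fold higher. Fes1B, a nucleotide exchange factor of Hsp70, had 239 in rescued emf2, 194 in emf2, 199.6 in transWT and 1039 in WT, 4.35-fold lower, and the co-chaperone Hop1 had 233 in rescued emf2, 302 in emf2, 375 in transWT and 648 in WT, 2.78-fold lower. MSRB6, a methionine sulfoxide reductase picked after its value was seen, had 853 in rescued emf2, 104 in emf2, 3456 in transWT and 3214 in WT, 3.77-fold lower, between emf2 and WT.

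Some other lists are given by their counts, beside 5.3% higher and 9.49% lower of all named genes. Flavonoid and anthocyanin genes had 0 higher and 1 lower of 4, and plastid cytochrome b6f genes 1 higher and 0 lower of 4. Serine carboxypeptidase-like genes had 1 higher and 2 lower of 15, the TBL wall acetylation family 2 higher and 1 lower of 16, cytochrome P450 genes 0 higher and 1 lower of 10, and mitochondrion-encoded genes 1 higher, the cytochrome c maturation gene ccb382 (518 in rescued emf2, 152 in emf2, 568 in transWT and 218 in WT; 2.38-fold higher), and 0 lower of 6. Of 8 tetraspanins TET9 and TET8 (11926 in rescued emf2, 7228 in emf2, 10496 in transWT and 5555 in WT; 2.15-fold higher) were higher and 0 lower, and TET8 lost its call under quantile normalization and under cyclic loess. The reference genes PEX4 (1609 in rescued emf2 against 1148 in WT), GAPC2 (18424 in rescued emf2 against 14481 in WT) and EIF4A-2 (2709.6 in rescued emf2 against 2846 in WT) were all within 2-fold.

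The transWT array shares transgene and hygromycin with rescued emf2 and lacks the emf2 background, and set against it rescued emf2 had 322 higher (2.26%) and 426 lower (2.99%) of 14250 probe sets. Set against emf2, it had 826 higher (5.85%) and 702 lower (4.97%) of 14122. These comparisons share the rescued emf2 array with the one above, and their numbers are given only side by side. Several genes far from WT were also far from transWT: UGT76E12, TET9, ALC and AT1G12010 had at least 2-fold more signal in rescued emf2 than in transWT, and psbB, EXPA8, UGT72E1 and YAB5 at least 2-fold less. Others differed from WT by a similar or larger amount on the transWT array, as the values of COR15A, PWD (AT5G26570), BGLU44, SWEET2, CP1 and EXO above show. A further set was far from WT on all 3 other arrays, as for AT1G65490, MCCA, PORB, AT2G43550 and GH9C2. These genes were picked after their values were seen, and with 1 array a group the shares of such patterns were not tested.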

How the data were processed

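Per the labels' protocols, whole-seedling RNA, 10 µg of it per array, was labelled with biotin for Affymetrix arrays, of which each group has 1. According to the submitters' processing notes the authors used MAS5, and the deposited values are intensities on a linear scale. Version and genome build: not given in the sources used here. Precision is limited by the number of arrays, 1 per group, and no test was run.

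Each array was rescaled to one mean without the top and bottom 2% of its 22810 probe sets. Signals under the 40th percentile (87.6) of the 22746 probe sets other than controls were set to it, and log2 ratios of rescued emf2 over WT were taken with pandas 2.3.3. A difference counts from 2-fold if either array exceeds that floor. A ratio with 1 array below the floor is a bound, written as at least N-fold, and enters medians at that value.

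Names come from the platform annotation: 13513 of 22810 list 1 gene, 503 several and 8794 are not listed, and 13436 were matched to TAIR10.1 names. A gene is represented by its brightest probe set. Named are the 15 highest and 15 lowest genes, the 8 highest and 8 lowest bounds, and up to 6 members of each of 51 lists; other genes were picked after their values were seen. The members and lists were chosen with earlier results of these data known: 11 lists were added, and 34 changes to list membership made, after values were seen. The ratio code was tested on simulated data. The 10 alternatives were other scalings (R 4.3.3, limma 3.58.1 for cyclic loess), other floors, and the mean over a gene's probe sets.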

Additional observations from a re-analysis of the deposited data

Results flagged for a closer look

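Control probe sets, which measure RNA added during preparation and no seedling transcript, were brighter on the rescued emf2 array than on the WT array. The 18 hybridization control probe sets had a median ratio of rescued emf2 over WT of 1.35, with a range of 1.05 to 1.52. Of 27 probe sets for bacterial poly-A control RNAs, 7 were above the floor on all arrays, and their median ratio was 2.48, with a range of 1.95 to 3.56. On the transWT array, which also comes from plates with hygromycin, these medians over WT were 1.21 and 1.92, and on the emf2 array 1.03 and 1.05. The cause was not tested.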

How the results depend on the processing

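No result changed direction past 2-fold under the 10 alternatives. The 863 higher and 1444 lower probe sets became 1417 and 829 with arrays scaled to the median, 562 and 700 with a 60th percentile floor, and 2774 and 3217 with no floor and a pseudocount of 1. Of the 146 genes past 2-fold that were named by rule, 136 kept a 2-fold difference in the same direction after quantile normalization, 136 after cyclic loess, 129 when scaled to the median, and 109 of 139 under the 60th percentile floor. Each of the other 6 alternatives kept all that it could measure. Scaling to the median took NDB1, at a log2 ratio of -1.25, within 2-fold. Genes picked after their values were seen were not followed, also where they lay nearer to 2-fold. The following list medians moved by more than 0.37 (log2), the error of a single gene's ratio, which is wider than that of a median. That error leaves out the one-sided difference between probe sets. Scaled to the median, plastid cytochrome b6f genes had 0.95. With a 25th percentile floor, flowering genes had 0.32, transporters 0.55, chloroplast factors -1.26, starch genes -1.37 and GH9 endoglucanases -0.45. At the 60th percentile, plastid ATP synthase genes had 0.34 and starch genes -1.44. With no floor, flowering genes had 0.47, defense genes 0.46, transporters 0.72, chloroplast factors -1.25, starch genes -1.37 and GH9 endoglucanases -0.24. Only with members above the floor on both arrays, mitochondrion-encoded genes had 0.90, plastid ATP synthase genes 0.34, flavonoid genes -0.72 and starch genes -1.77. Smaller shifts of over 0.1 were seen in 152 of 460 pairings of a list and an alternative, such as 0.0029 for nuclear photosystem genes after quantile normalization and -0.71 for histones at the 60th percentile floor. The floors change which members are measured; other causes were not tested. Scaling changed the sign of the median of 6 lists: plastid ATP synthase, Calvin cycle, wall, defense, cell cycle and aldehyde dehydrogenase genes. No paired analysis was possible because each group has 1 array. Nothing here measures variation between plantings, lines or hybridisations, and signals near the floor give bounds.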

Other observations

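Genes of the plastid and of cell surfaces that belong to no list had values that the text above does not give; they were picked after their values were seen. FTSZ2-2, a plastid division protein, read 321 in rescued emf2, 309 in emf2, 491 in transWT and 678 in WT, 2.11-fold lower in rescued emf2 than in WT. FZL, a membrane-remodelling protein of chloroplasts, read 143 in rescued emf2, 115 in emf2, 211 in transWT and 372 in WT, 2.61-fold lower. NTRC, a thioredoxin reductase of plastids, read 687 in rescued emf2, 491 in emf2, 1471 in transWT and 1390.3 in WT, 2.02-fold lower. All 3 had less signal on the arrays of the emf2 background than on those of the wild-type background. The calls of FTSZ2-2 and NTRC lay nearer to 2-fold than that of NDB1, which was lost when arrays were scaled to the median. Prx37, a peroxidase, read 958 in rescued emf2, 3527 in emf2, 472 in transWT and 449.5 in WT, 2.13-fold higher and far below emf2. THE1, a receptor kinase that senses the state of the wall, read 1183 in rescued emf2, 483 in emf2, 1318 in transWT and 542 in WT, 2.18-fold higher, with both transgenic arrays high.

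Of the 6740 tested probe sets that no gene names here, 450 (6.68%) exceeded their WT signal at least 2-fold in rescued emf2 and 690 (10.2%) lay below it by as much, against 5.26% and 9.60% of the 7853 probe sets named by 1 gene.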
